A study of Mus musculus with 6 samples.

Results

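The mitochondrial protein import machinery and the chaperones and proteases that keep imported proteins in shape were followed in a tumour line of mouse corticotropes, AtT-20 iPAM. Its cells make extra PAM when given doxycycline. PAM (peptidylglycine alpha-amidating monooxygenase) is the enzyme of the secretory pathway that gives peptide hormones their amidated ends. The genes were taken by name from the deposited table of transcript levels: every Timm and Tomm gene with a number, and Hspd1, Hspe1, Hspa9, Lonp1, Clpp, Clpx, Trap1, Grpel1, Dnaja3, Afg3l2, Spg7, Yme1l1, Htra2, Pmpca, Pmpcb, Phb and Phb2. They make up 41 of the 23349 genes listed. There were 3 libraries of cells with basal PAM and 3 of cells induced with doxycycline at 4 micrograms per ml for 48 h. Both groups are the same inducible line, grown with G418 and hygromycin in the medium; the labels do not say whether it is 1 clone. The study asks how expression in corticotropes changes when PAM is raised, and doxycycline and raised PAM cannot be told apart in this design.

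Most mitochondrial proteins are made in the cytosol and enter through the TOM complex of the outer membrane. From there the TIM23 complex passes precursors with a presequence into the matrix, small Tim chaperones of the intermembrane space hand carrier proteins to the TIM22 complex, and the matrix processing peptidase removes presequences. Matrix chaperones then fold the imported chains, and proteases on both faces of the inner membrane remove those that fail to fold or assemble. In corticotropes, as in other endocrine cells, hormone synthesis and secretion consume ATP that mitochondria supply.

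The libraries matched their labels. Pam stood at 92.6, 82.8 and 66.9 TPM (a gene's share of the library, scaled so that all genes sum to 1000000) in basal 1 to 3 and at 507, 399 and 258 TPM in induced 1 to 3, a 4.80-fold ratio of means. The corticotrope markers were all present, with Pomc between 20446 and 31055 TPM and Tbx19 between 534 and 640 TPM. Of 7 markers of other pituitary cells, Tshb, Fshb and Pou1f1 were at 0 in all libraries and no other passed 1.19 TPM. Their summed level was 0.552 to 2.004 TPM in basal and 0.338 to 0.855 TPM in induced libraries. The fibroblast markers summed to 2.57 to 4.03 TPM in basal and 1.33 to 1.76 TPM in induced libraries, with Pdgfra at 0. The endothelial markers summed to 0.673 to 0.824 TPM in basal and 0.252 to 0.428 TPM in induced libraries, with Cdh5 at 0. The blood cell marker Ptprc did not exceed 0.0366 TPM in basal libraries and was at 0 in induced ones. The part of these markers in the results was not tested. The labels state 16.6 M reads per library, but TPM values keep no depth, so no counting interval can be given.

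Most members had a slightly higher mean in induced cells, and none passed the test when the libraries were compared as plain groups. Of the 41 members, 39 had a mean of at least 1 TPM and were tested. Timm8a2 was at 0 in all 6 libraries, and Tomm20l did not exceed 0.518 TPM in any. In the limma fit of log2(TPM + 1), 31 of the 39 log2 differences (induced minus basal) were positive and 8 negative, with a median of 0.22. Across all 12400 genes tested, 44.9% were positive and the median was -0.04, with quartiles at -0.24 and 0.15, and 25 members lay above the upper quartile. No member reached an adjusted p of 0.05, where 1.19% of all genes did, and the lowest limma adjusted p was 0.104, for Hspe1. An unadjusted p under 0.05 was found for 9 members, or 23.1%, against 15.1% of all genes. In bulk RNA, more cells that hold a transcript and more of it per cell cannot be told apart.

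The column names number the libraries of each group from 1 to 3. Whether equal numbers mark a shared culture or day is not stated. The pairing rests on the correlation of same-numbered libraries, which was clear for number 3 and no higher for number 2 than between numbers 1 and 2. Values among numbers 1 and 2 can be positive through number 3 alone, so they do not show pairing. With that number as a block, so that induced and basal libraries were compared within each number, 12 of the 39 members (30.8%) passed as higher, where 8.23% of all genes did. None passed as lower, where 14.0% of all genes did. Over all genes the block gave 1021 higher and 1740 lower calls, a split that was 1409 to 1415 after quantile normalization (11.4% of genes higher) and 6960 to 523 (56.1% higher) under the offset of the deposited DESeq2 table, a shift described below. In those fits 13 and 37 members passed, all higher. With all 6 libraries and no offset, members passed only with the block. Without the block, 20 members passed under the offset and 3 without both libraries numbered 3. The log2 differences themselves are the same with the block as in the plain comparison of groups. In 13 members (33.3%) every induced library stood above every basal one, against 9.04% of all genes. In 1 member, Afg3l2, every induced library stood below, against 12.6% of all genes. Within all 3 column numbers, 25 members (64.1%) were higher in induced cells, against 23.6% of all genes, and 1 was lower, against 32.6%. With the block and without both libraries numbered 1, 2 or 3, the count of members that passed, all as higher, was 4, 3 and 9 of 39, where 4.25%, 3.95% and 4.10% of all genes passed as higher. Of the 12, 4, 3 and 7 were among them. Hspe1 passed in each of these fits (adjusted p = 0.0114, 0.0401 and 0.0152), while Clpp, Htra2 and Phb2 passed in none.

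**Figure D1:**
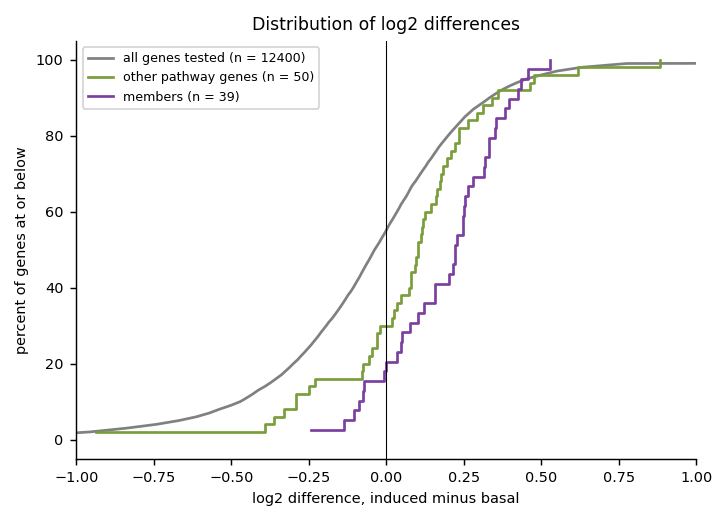
Cumulative share of genes (vertical axis, percent) at or below each log2 difference, induced minus basal (horizontal axis, cropped at -1 and 1), for all 12400 genes tested, the 39 tested members and 50 other genes of the pathway. The line of the members lies to the right of that of all genes over most of its length, with medians of 0.22 and -0.04.

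Summed over all members, transcript levels were 6022, 5752 and 5760 TPM in basal 1 to 3 and 7187, 7081 and 6673 TPM in induced 1 to 3. Every induced library lay above every basal one, at a ratio of means of 1.19. The sum is weighted towards the most abundant members, so the median member was also taken in each library, against the basal mean on the log2 scale. It was 0.00, -0.01 and -0.02 in the basal libraries and 0.28, 0.26 and 0.16 in the induced ones, with a pooled SD of 0.05. By role, the ratio of summed levels was 1.29 for the matrix chaperones, 1.25 for the small Tims and TIM22, 1.22 for the prohibitins, 1.18 for the TIM23 channel and motor, 1.14 for the outer membrane, 1.13 for the processing peptidase and 0.987 for the proteases.

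In the outer membrane, the pore Tomm40 and its small subunit Tomm5 passed as higher in induced cells with the block, and not in the plain comparison of groups. Of the 9 genes tested, 6 log2 differences were positive and 3 negative and the median was 0.20. Tomm5, a small subunit attached to the pore (chromosome 4, 45105208 to 45108114, minus strand, mm10), stood at 99.5, 85.1 and 90.0 TPM in basal 1 to 3. In induced 1 to 3 it stood at 130.1, 150.0 and 119 TPM, so the groups did not overlap. Its mean went from 91.6 ± 7.30 to 133 ± 15.8 TPM (SD, n = 3), the highest log2 difference of any member, 0.53 (SE 0.14, limma adjusted p = 0.139; with the block SE 0.11, adjusted p = 0.00838). Tomm40, the beta-barrel pore itself (chromosome 7, 19701313 to 19715438, minus strand), was at 137, 159 and 161 TPM in basal and at 185, 182 and 239 TPM in induced libraries. Its groups did not overlap either, and induced 3 was the highest library. The log2 difference was 0.40 (SE 0.15, limma adjusted p = 0.288; with the block SE 0.09, adjusted p = 0.0181).

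The other outer membrane genes did not pass in either fit. Tomm40l, a relative of Tomm40 expressed at 12.3 to 19.6 TPM, had groups that did not overlap (log2 difference 0.33, limma adjusted p = 0.418; with the block 0.0894). Tomm22, the central receptor that holds the complex together, had a log2 difference of 0.20, and Tomm70a, the receptor for carrier precursors, one of 0.25 with an SE of 0.47. Tomm70a shows how wide the spread was, with 115, 89.5 and 57.2 TPM in basal and 157, 132 and 48.0 TPM in induced libraries. Its libraries numbered 3 were the lowest of both groups. Tomm20, the presequence receptor, and Tomm6 and Tomm7, small subunits that steady the complex, had log2 differences of -0.01, -0.07 and 0.05. Tomm34, a cytosolic co-chaperone of precursor delivery, was at 102, 108 and 119 TPM in basal and 112, 93.4 and 108 TPM in induced libraries, so its groups overlapped. The difference was -0.08 on the log2 scale (limma adjusted p = 0.886; with the block 0.603) and 0.34 under the DESeq2 offset.

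All 8 genes of the TIM23 channel and its motor had positive log2 differences, from 0.08 to 0.35 with a median of 0.19, and 2 of them passed with the block. Timm23, the channel-forming subunit, was at 251, 219 and 201 TPM in basal 1 to 3 and at 304, 293 and 259 TPM in induced 1 to 3. The groups did not overlap, and in both groups library 1 was the highest and library 3 the lowest. The log2 difference was 0.35 (SE 0.14, limma adjusted p = 0.291; with the block SE 0.08, adjusted p = 0.0152). Timm17a, which forms the channel together with Timm23, was at 198, 186 and 134 TPM in basal and at 246, 261 and 162 TPM in induced libraries. Here induced 3 fell within the basal range, although each induced library was above the basal library of its own number. For Timm17a the log2 difference was 0.35 (SE 0.23, limma adjusted p = 0.571; with the block SE 0.09, adjusted p = 0.0183). Its X-linked paralogue Timm17b was at 31.8, 27.4 and 26.0 TPM in basal and 36.9, 36.0 and 27.9 TPM in induced cells, and library 3 was again the lowest of each group. Timm17b did not pass (log2 difference 0.23, limma adjusted p = 0.620; with the block 0.135).

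The remaining subunits of this group did not pass in either fit. Timm50, the receptor that receives precursors from TOM, had groups that did not overlap, with 229 to 262 TPM in basal and 272 to 299 TPM in induced libraries (log2 difference 0.22, limma adjusted p = 0.458; with the block 0.0757). Hspa9, the matrix Hsp70 that pulls precursors inward, had a log2 difference of 0.16, and its nucleotide exchange factor Grpel1 one of 0.10. Timm44, which tethers that motor to the channel, and Timm21, which links TIM23 to TOM, had log2 differences of 0.08 and 0.12.

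The bases just before the Timm23 start are printed because they hold, in capitals, the ETS-type motif CCGGAAG (here on the reverse strand), found before more members than any other motif searched. They are chr14:32201899-32201948 of GRCm38.p6 on the minus strand, from RefSeq, and run up to the annotated start of the gene at 32201898.
Timm23: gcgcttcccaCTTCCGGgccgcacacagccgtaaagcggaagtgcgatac

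Of the 41 members, 35 had a RefSeq promoter window, and the 250 bases before each start were searched on both strands. A member was counted if any of its windows held the motif, while the share over all promoters is per window. Members with several starts, such as Hspd1, had more chances, so the shares differ in unit and are not directly comparable. CCGGAAG was present in 14 of the 35 (40.0%), against 6.91% of all 32851 promoter windows. The NRF1-type motif GCGCANGCG was present in 6 members (17.1%) against 5.16% of windows, and the E-box CACGTG in 7 (20.0%) against 6.02%. The C/EBP-type motif TGCAAT was in 4 members (11.4%) against 7.32% of windows. The amino acid response motifs TGATGCAAT and TGATGAAAC were in 0 members, against 0.167% and 0.213% of windows. A match describes these letters only. Among the 12 members that passed with the block, CCGGAAG was found before Hspd1, Hspe1, Phb2, Timm10 and Timm23. Among tested members that did not pass, it was found before Grpel1, Pmpca, Pmpcb, Timm8b, Tomm22, Tomm34, Tomm70a and Yme1l1.

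The small Tims of the intermembrane space and the TIM22 channel were all higher on average, and 2 of the 7 tested passed with the block. Their log2 differences ran from 0.04 to 0.44 with a median of 0.27. Timm10, which forms a ring with Timm9 that escorts carrier precursors (chromosome 2, 84826997 to 84830213, plus strand), was at 84.3, 101 and 115 TPM in basal libraries. It was at 121, 127 and 159 TPM in induced libraries, and the groups did not overlap. The log2 difference was 0.44 (SE 0.17, limma adjusted p = 0.293; with the block SE 0.09, adjusted p = 0.00833). Its partner Timm9 had the same order of libraries, from 71.9 to 107 TPM in basal and from 83.8 to 141 TPM in induced cells, and a log2 difference of 0.25 (limma adjusted p = 0.728; with the block 0.0807).

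Timm8a1, the mouse counterpart of the human gene lost in a deafness and dystonia syndrome, works with Timm13 in the same space. It was at 118, 109 and 81.8 TPM in basal 1 to 3 and at 182, 161 and 87.6 TPM in induced 1 to 3. Both libraries numbered 3 were the lowest of their group, and the groups overlapped through induced 3. On the log2 scale the difference was 0.42 (SE 0.29, limma adjusted p = 0.597; with the block SE 0.11, adjusted p = 0.0273). Without both libraries numbered 1 or 2, its adjusted p with the block was 0.128 and 0.147. Its close copy Timm8a2 was at 0, so how reads of the copies were shared out was not tested. Timm8b, a related small Tim, was at 174, 169 and 169.9 TPM in basal and 177, 193 and 254 TPM in induced libraries. Its groups did not overlap, yet the gap between them was small beside the distance of induced 3 from the rest (log2 difference 0.27, limma adjusted p = 0.527; with the block 0.117). Timm13 had a log2 difference of 0.22, and Timm10b, a subunit of TIM22, one of 0.28 with an SE of 0.31. Timm22, the channel itself, stood at 11.2 to 13.7 TPM over all libraries, with a log2 difference of 0.04.

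**Figure D2:**
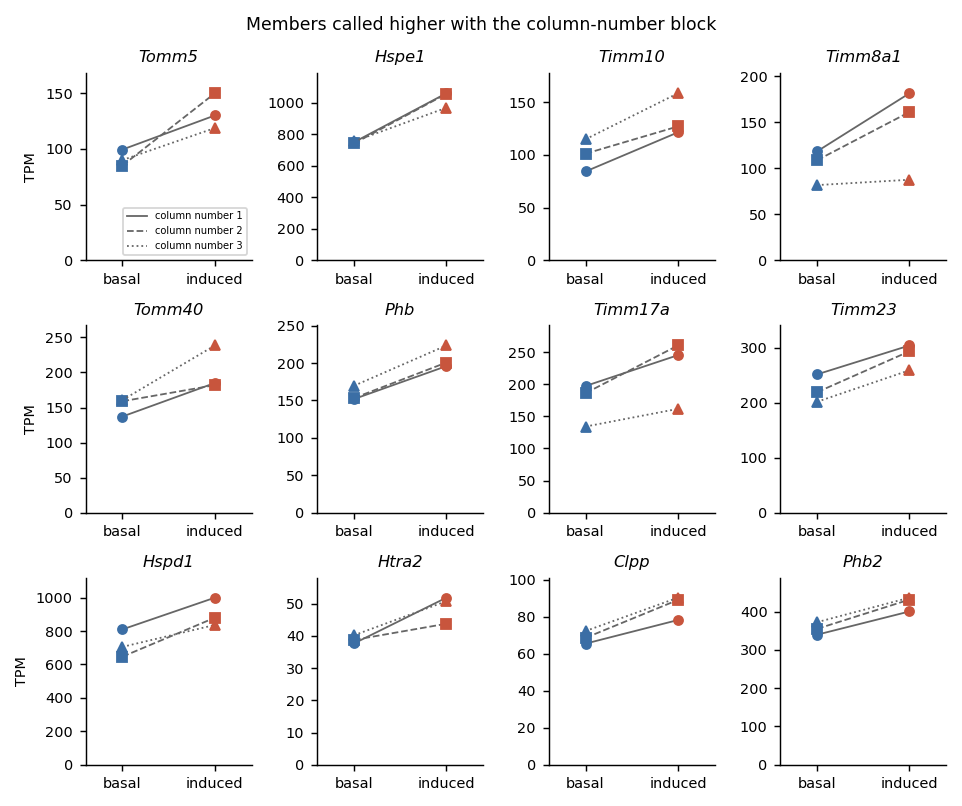
TPM (vertical axes, from 0) in basal and induced libraries for the 12 members that passed with the block, with lines joining libraries of the same column number. Every line rises, and for Timm17a and Timm8a1 the libraries numbered 3 (dotted) lie below the others in both groups.

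Among the 4 matrix chaperones, with a median log2 difference of 0.29, the chaperonin and its lid passed with the block, and Hspe1 had the smallest adjusted p of all members in both fits. Hspe1, the lid that closes the folding chamber, was at 749, 741 and 754 TPM in basal 1 to 3 and at 1059, 1055 and 967 TPM in induced 1 to 3. The basal libraries were nearly level, and all induced libraries stood well above them. The mean went from 748 ± 6.64 to 1027 ± 52.0 TPM (SD, n = 3), a 1.37-fold ratio and a log2 difference of 0.46 (SE 0.11, limma adjusted p = 0.104; with the block SE 0.08, adjusted p = 0.00372). Hspd1, the chaperonin itself, was at 810.1, 647 and 705 TPM in basal and at 999.7, 879.8 and 837 TPM in induced libraries. The groups did not overlap, with induced 3 just above basal 1. This gave a log2 difference of 0.33 (SE 0.14, limma adjusted p = 0.315; with the block SE 0.08, adjusted p = 0.0165). Trap1, the mitochondrial Hsp90, had a log2 difference of 0.25 (limma adjusted p = 0.659; with the block 0.0613), and Dnaja3, a J-protein partner of Hspa9, one of -0.00.

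Hspd1 and Hspe1 lie head to head on chromosome 1. A stretch between RefSeq starts of these genes is printed because both passed with the block. Hspe1 runs on the plus strand from 55088132 to 55091307 and Hspd1 on the minus strand from 55077835 to 55088243 (mm10). A RefSeq start of Hspd1, at 55087932, is separated by 215 bases from that of Hspe1, at 55088148. Another RefSeq start of Hspd1, at 55088243, lies past that of Hspe1. The annotated genes therefore overlap, and the printed stretch lies within the span of Hspd1. The stretch chr1:55088025-55088131 (GRCm38.p6, plus strand, RefSeq) reads towards Hspe1. The capitals mark a run of overlapping heat shock element pairs, TTCNNGAA and GAANNTTC, and the ETS-type motif lies on both strands at its end, on the reverse strand within the capitals and on the forward strand running 1 base past them.
Hspd1-Hspe1: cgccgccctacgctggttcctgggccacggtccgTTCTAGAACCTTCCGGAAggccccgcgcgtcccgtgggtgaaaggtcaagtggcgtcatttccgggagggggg

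Over all members with a window, TTCNNGAA was present in 8 of 35 (22.9%), against 7.17% of all windows, and GAANNTTC in 3 (8.57%), against 6.69%. Here too members were counted by any of their windows and the share over all promoters is per window. The windows of Hspd1 and Hspe1 overlap, so they count the same bases more than once.

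The processing peptidase, which cuts presequences off in the matrix, did not pass in either subunit. Pmpcb, the catalytic subunit, was at 105, 101 and 119 TPM in basal and 119, 119 and 140.0 TPM in induced libraries, and basal 3 reached the lower induced values. The log2 difference of Pmpcb was 0.21 (SE 0.14, limma adjusted p = 0.550; with the block 0.0939). Pmpca, the substrate-binding subunit, was at 43.8, 36.9 and 32.4 TPM in basal and 44.4, 38.8 and 33.8 TPM in induced libraries, with the same order of libraries in both groups. For Pmpca it was 0.05 (limma adjusted p = 0.950; with the block 0.737), and the 95% confidence interval with the block ran from -0.16 to 0.26.

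The proteases had mixed signs, with 3 positive and 4 negative log2 differences and a median of -0.09. The 2 that passed with the block were both higher. Clpp, the peptidase core of the ClpXP protease of the matrix, was at 65.5, 68.6 and 72.3 TPM in basal and 78.3, 89.1 and 90.4 TPM in induced libraries. Its groups did not overlap (log2 difference 0.31, SE 0.13, limma adjusted p = 0.307; with the block SE 0.09, adjusted p = 0.0315). Clpx, the unfoldase that feeds Clpp, was at 41.6, 33.2 and 31.5 TPM in basal and 40.0, 36.3 and 24.8 TPM in induced libraries. Its groups overlapped, with a log2 difference of -0.09 (SE 0.21, limma adjusted p = 0.927; with the block 0.614) that was 0.035 without both libraries numbered 3 and 0.33 under the DESeq2 offset. Htra2, a serine protease of the intermembrane space, was at 37.7, 38.8 and 40.2 TPM in basal and 51.9, 43.8 and 50.8 TPM in induced libraries. Its groups did not overlap (log2 difference 0.32, SE 0.13, limma adjusted p = 0.324; with the block SE 0.10, adjusted p = 0.0465), and with the block its adjusted p was 0.298 without both libraries numbered 1.

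The 4 lowest log2 differences belonged to Clpx and to 3 more ATP-dependent proteases, and none of them passed. Afg3l2, a subunit of the m-AAA protease of the inner membrane, was at 126, 120.4 and 137 TPM in basal and 112, 93.6 and 120.2 TPM in induced libraries. Induced 3 was only just below basal 2, and the groups did not overlap. Afg3l2 had the lowest log2 difference of any member, -0.24 (SE 0.14, limma adjusted p = 0.515; with the block SE 0.09, adjusted p = 0.0742), which was 0.18 under the DESeq2 offset. Spg7, its partner in the m-AAA protease, had a log2 difference of 0.16 (limma adjusted p = 0.734; with the block 0.275). Lonp1, the main soluble protease of the matrix, was at 229, 245 and 324 TPM in basal and 203, 203 and 331 TPM in induced libraries. The libraries numbered 3 were the highest of both groups, and without basal 3 the log2 difference of -0.14 (limma adjusted p = 0.883; with the block 0.295) was 0.014. Yme1l1, the i-AAA protease that faces the intermembrane space, was at 58.3, 38.7 and 24.9 TPM in basal and 55.7, 47.0 and 17.1 TPM in induced libraries. It had the widest spread of any member, with an SE of 0.48 around a log2 difference of -0.10 (limma adjusted p = 0.961; with the block 0.637), and the difference was 0.11 without both libraries numbered 3. Under the DESeq2 offset the differences of Lonp1 and Yme1l1 were 0.28 and 0.31.

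Both prohibitins, which form ring complexes in the inner membrane that bind the m-AAA protease, passed with the block. Phb (chromosome 11, 95666957 to 95680773, plus strand) was at 152, 153 and 169.7 TPM in basal and 196, 201 and 224 TPM in induced libraries. Its groups did not overlap (log2 difference 0.38, SE 0.12, limma adjusted p = 0.1999; with the block SE 0.08, adjusted p = 0.0101). Phb2 was at 339.8, 355 and 373 TPM in basal and 401, 431 and 437 TPM in induced libraries. Its groups did not overlap either (log2 difference 0.25, SE 0.11, limma adjusted p = 0.367; with the block SE 0.08, adjusted p = 0.0447). In both genes basal 3 was the highest basal and induced 3 the highest induced library.

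**Figure D3:**
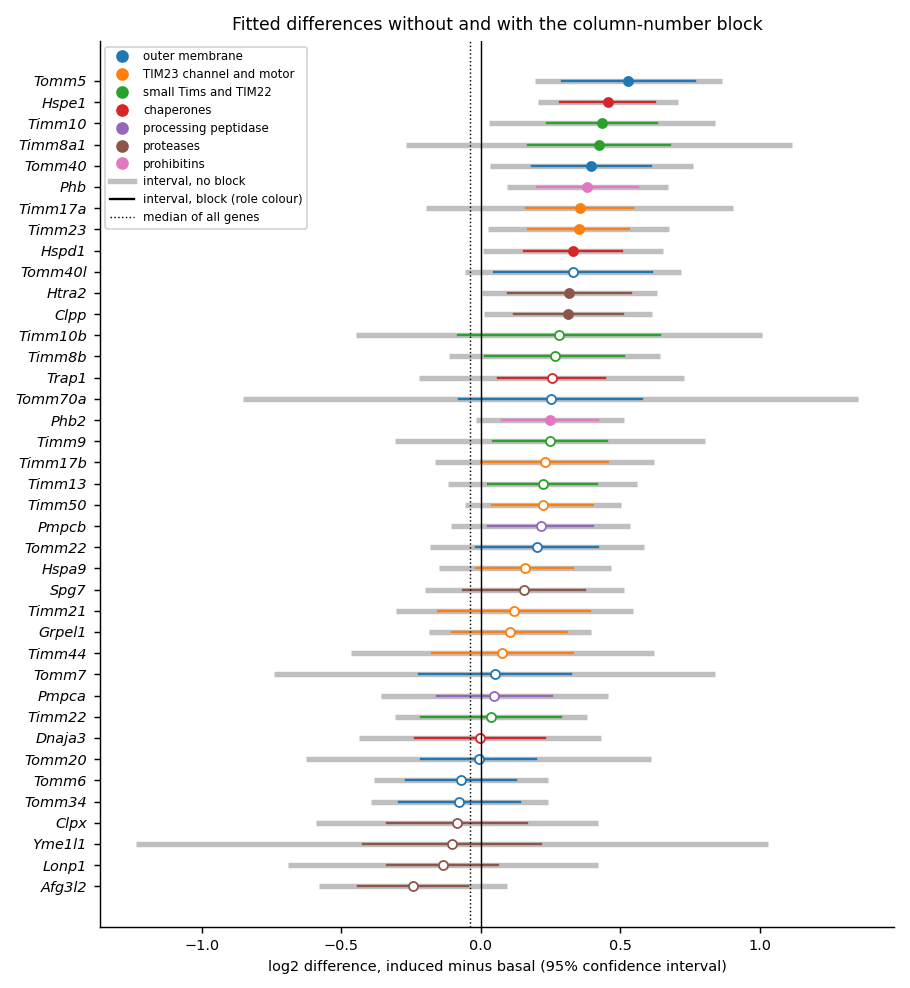
Log2 difference, induced minus basal (points), of each tested member with its 95% confidence interval without the block (grey) and with it (coloured by role); filled points passed with the block, and the dotted line is the median of all genes. The 12 filled points lie between 0.25 and 0.53, and the intervals of Tomm70a and Yme1l1 narrow most when the block is added.

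The libraries numbered 3 stood apart in both groups, and more so for some members than the groups did. In 35 of the 39 members, library 3 departed from libraries 1 and 2 in the same direction in both groups, lower in 20 and higher in 15. Across members the departures in basal and induced cells had a Pearson r of 0.94, which describes 39 genes of the same 6 libraries. For 18 members the departure of basal 3 was larger than the difference between the groups. The GC content of the longest transcript, 38.0% to 60.1% over the members, went along with the mean departure at r = 0.59 and rho = 0.54, and over 12281 genes at r = 0.47 and rho = 0.51. With the difference between groups it had r = 0.10 over the members and 0.05 over all genes with a GC value. The libraries were made of amplicons, so this is the GC content of the transcript and not of the bases read. When each library was corrected for GC content by loess, an alternative chosen after seeing the data, 18 members passed as higher with the block, the 12 among them, where 13.6% of all genes did, and 0 without it, where 1.02% did. Without both libraries numbered 3 and with no block, 3 members passed as higher, where 1.51% of all genes did. The part of batch, RNA quality or library preparation in these departures was not tested.

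**Figure D4:**
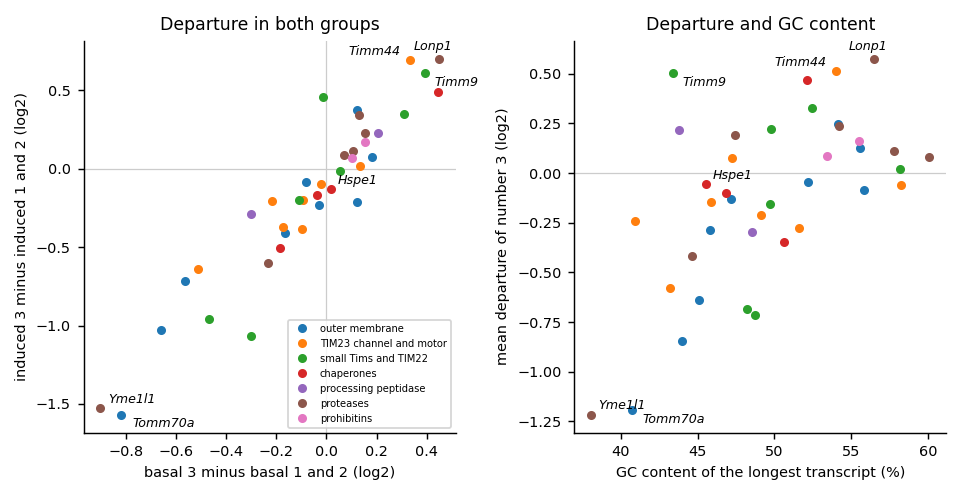
Left, the departure of library 3 from the mean of libraries 1 and 2 (log2 scale) in basal cells (horizontal axis) and induced cells (vertical axis), 1 point per tested member coloured by role. Right, the mean of both departures against the GC content of the longest transcript; Yme1l1 and Tomm70a sit at the low end of both axes and Lonp1 near the top.

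The authors' own tables list few of the members. The authors' deposited table from Cuffdiff holds 5 of them, all higher in induced cells: Tomm5 at a log2 fold change of 0.57 (q = 0.0114), Timm8a1 at 0.51 (q = 0.0126), Hspe1 at 0.48 (q = 0.0234), Timm10 at 0.46 (q = 0.0495) and Tomm40 at 0.42 (q = 0.0477). It lists 559 genes as higher, or 2.39% of the 23349 genes in the deposited levels, tested here or not. Of those 23349, 6551 were at 0 in all libraries. In the authors' deposited table from DESeq2, which lists 0.634% of the same 23349 genes as higher, Hspe1 is the member named, at a log2 fold change of 0.88 (adjusted p = 5.54e-24). The authors' deposited table from limma and the core list named 0 members. The log2 fold changes of the authors' deposited DESeq2 table exceed those of the deposited levels by a median of 0.42 over its 195 genes. The spread around that median is not given here, and whether it holds for genes outside that table was not tested. Adding that median as 1 offset to every gene of the induced libraries moved the median of all genes to 0.36 and that of the members to 0.64. Relative to the median of all genes, the members' median was 0.26 as deposited, 0.28 with the offset, and between 0.20 and 0.32 over all settings tried. The offset shifts all genes nearly alike, so it could hardly change this distance. Settings of the eBayes step, the block alone or the threshold could not change it.

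Other genes of the pathway were taken from lists by function. Of 50 listed and tested, 35 log2 differences were positive and 15 negative, with a median of 0.10, where 44.9% of all genes were positive. In the limma fit 0 passed, where 1.19% of all genes did. With the block 7 passed as higher and 3 as lower, where 8.23% and 14.0% of all genes did. The 7 were Parl, Samm50, Aifm1, Apool, Dnajc19, Hspa8 and Atf5. Parl, a rhomboid protease of the inner membrane, was at 107, 94.6 and 103 TPM in basal and 169, 154 and 148 TPM in induced libraries, with no overlap. That is a log2 difference of 0.62 (SE 0.12, limma adjusted p = 0.0738; with the block adjusted p = 0.00172). Samm50, the core of the outer membrane assembly machinery for beta-barrels such as Tomm40, went from 121 ± 2.32 to 169 ± 13.4 TPM (SD, n = 3; log2 difference 0.48, limma adjusted p = 0.125; with the block 0.00546). Aifm1, the intermembrane space flavoprotein that binds the import receptor Chchd4, had a log2 difference of 0.46 (limma adjusted p = 0.217; with the block 0.0109), and Chchd4 one of 0.16 (limma adjusted p = 0.813; with the block 0.215). Dnajc19, a J-protein of the TIM23 motor, had a log2 difference of 0.34 (limma adjusted p = 0.406; with the block 0.0315). Apool, a MICOS subunit, had one of 0.36 (limma adjusted p = 0.355; with the block 0.0280).

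Regulators tied to the mitochondrial unfolded protein response went in different directions. Atf5, a transcription factor linked to that response in mammalian cells, was at 137, 155 and 172 TPM in basal and 312, 238 and 310.0 TPM in induced libraries. The groups did not overlap, and the log2 difference was 0.88 (SE 0.16, limma adjusted p = 0.0589; with the block adjusted p = 0.00105). Ddit3, which encodes the stress factor CHOP, was at 394, 531 and 793 TPM in basal and 198, 272 and 436 TPM in induced libraries. Each induced library was below the basal library of its number, but the groups overlapped (log2 difference -0.94, SE 0.35, limma adjusted p = 0.264; with the block adjusted p = 0.000165). Atf4, Cebpb and Hsf1 had log2 differences of -0.03, -0.39 and -0.08 and passed in neither fit. Of the cytosolic chaperones that deliver precursors, Hspa8 passed with the block at a log2 difference of 0.29 (limma adjusted p = 0.529; with the block 0.0215). Hsp90aa1 passed as lower, at 1194, 1105 and 1207 TPM in basal and 959, 938 and 965 TPM in induced libraries (log2 difference -0.29, limma adjusted p = 0.252; with the block 0.0207). Cox18, an inner membrane insertase, was the other gene lower with the block, at a log2 difference of -0.36 (limma adjusted p = 0.484; with the block 0.0347).

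Several members share exons with another gene, and whether the assay kept strand is not stated, so their values may hold reads of the partner. On the opposite strand, Htra2 overlaps Aup1 and Loxl3, Phb2 overlaps Gm15884, Pmpca overlaps Inpp5e, Timm17b overlaps Gm10491, Timm8b overlaps Nkapd1 and Tomm40 overlaps Gm20512. The same holds for Tomm70a with Nit2, Tomm40l with Nr1i3, Timm13 with Tmprss9, Trap1 with Dnase1 and Grpel1 with Tada2b, and Timm9 and Tomm20l overlap each other. Timm10b overlaps Gm45799 on its own strand and Arfip2 and Gm22504 on the other, and Tomm6 overlaps Gm21981 on its own strand and Tomm6os and Usp49 on the other.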

How the data were processed

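RNA from dense wells of a 6-well dish was made into amplicon libraries with the AmpliSeq Library PLUS kit and run in 1 lane, per the labels' protocols. Nothing in the labels says that replicates were separate cultures, and p-values then reflect a spread among libraries that may be technical. The submitters' processing notes name TopHat2 2.0.9, Bowtie2 2.1.0.0, Cuffdiff 2.2.0 and Cufflinks 2.2.0, limma, DESeq2 and the build mm10. The deposited sheet is called FPKM, but each column sums to 1000000, so its deposited values are TPM and keep no depth. Amplicon reads are not proportional to length, so levels can be compared only within a gene. The summed levels of members, roles and markers weight each gene by its level and carry that limit. The deposited sheet also holds a ratio and a log2 column. The authors' deposited comparison tables give FPKM, log2 fold changes, p-values, q-values and a limma B score, per the file headers. Labels name libraries by letters and columns by numbers, so columns were matched to groups only.

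Values were transformed to log2(TPM + 1). The 12400 genes whose mean was 1 TPM or more entered limma 3.58.1 under R 4.3.3 (eBayes with a trend, Benjamini-Hochberg adjustment over all genes tested, threshold 0.05). The fit was run on simulated data with changes larger than any member's and less random noise than the real libraries. That run therefore cannot tell how reliable calls are at the members' differences. Deviations from group means correlated at 0.461, 0.182 and 0.717 between same-numbered basal and induced libraries (numbers 1, 2 and 3). Between different numbers they were 0.322 (basal 1, induced 2) and 0.284 (basal 2, induced 1), and from -0.609 to -0.327 where number 3 was involved. No label says what the number marks. The rule for giving block values beside the calls they change was that every same-numbered value was above 0.1. That rule cannot show pairing for numbers 1 and 2. Deviations within a group sum to 0, so a departure of number 3 shared by both groups itself makes values among numbers 1 and 2 positive. The members and gene lists were chosen with earlier results of these data known. Values in every library are given for members past the threshold in either fit, the 5 highest and 5 lowest log2 differences, and the pairs Hspd1 and Hspe1, Pmpca and Pmpcb, Phb and Phb2, Clpp and Clpx, Timm17a and Timm17b, and Timm8a1 and Timm8b; values in every library of other genes, and of the other pathway genes named, were chosen after their values were seen. Gene positions come from the GENCODE annotation of mm10 and promoters from RefSeq (GRCm38.p6). A count test, planned in case counts were found, was not run.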

Additional observations from a re-analysis of the deposited data

How the results depend on the processing

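With no block, 16 alternatives called 0 members. The members' median log2 difference stayed positive in all 25 alternatives, but several of them could not change its sign. Other eBayes settings, the block alone and the threshold of 0.1 leave the median as it is, and the offset adds a positive constant. The median ran from 0.18 to 0.25 without 1 library and was 0.64 under the DESeq2 offset, with or without the block. With the column number as a replicate block, 12 members and 2761 genes passed. With the block and without both libraries numbered 1, 2 or 3 (chosen after seeing the data), 4, 3 and 9 members and 1799, 1442 and 1425 genes passed. Block settings chosen likewise gave 37 members and 7483 genes with the offset, 13 and 2824 with quantile normalization, and 18 and 3444 with a GC correction. Without the block, 20 members and 1995 genes passed under the offset, and 3 and 688 without both libraries numbered 3. All genes called numbered 148 as reported, 93 with a filter at 5 TPM and 96 on a scale per library. That scale was inferred here from the authors' deposited ratio column and the levels. The count was 435 with the GC correction, 394 at a threshold of 0.1 and 0 to 255 without 1 library. Limma fits that called 0 had 1130 to 1562 unadjusted p-values under 0.05. The cause of these shifts was not tested. No alternative called a member lower.

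Signs changed for members that did not pass. The offset, with or without the block, gave Afg3l2 0.18, Clpx 0.33, Lonp1 0.28, Tomm34 0.34 and Yme1l1 0.31; with the block the adjusted p of Clpx, Lonp1 and Tomm34 was 0.0317, 0.0206 and 0.0132. Without both libraries numbered 3, Clpx was 0.035 and Yme1l1 0.11, and with the GC correction Yme1l1 was 0.015. Without 1 library, Clpx ran from -0.22 to 0.11, Yme1l1 from -0.42 to 0.41, Lonp1 from -0.37 to 0.014 and Pmpca from -0.052 to 0.16. TPM keeps no depth, so what depth limits cannot be given.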
